A study of Mus musculus with 11 samples.

Results

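The respiratory chain and the ATP synthase are built from 2 genomes, and their genes were followed here through the brains of mouse embryos. The members were the rows for genes of the mitochondrial chromosome and the protein-coding nuclear genes whose symbols begin with Nduf, Sdha, Sdhb, Sdhc, Sdhd, Uqcr, Cox4i, Cox5, Cox6, Cox7, Cox8 or Atp5. They numbered 114 of the 27179 genes counted in each library: 15 mitochondrial genes (13 that encode proteins and 2 ribosomal RNAs) and 99 nuclear genes. Another 5 rows with such names were pseudogenes in RefSeq and were left out. Ndufb4c, protein-coding in RefSeq, was kept, although GENCODE vM21 types it as a processed pseudogene. All 15 mitochondrial members and 92 of the 99 nuclear members passed the filter on low counts and were tested.

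Polyadenylated RNA was sequenced from neural tissue at embryonic day 9.5, dissected from the front of the brain to just behind the otic vesicle. All 11 embryos were C57BL/6 and heterozygous for Bim (Bim+/-), the gene for a pro-apoptotic BH3-only protein. The 4 affected females and the 4 control males were p53-/-, and the 3 control females were p53+/+. The labels do not say by what sign the females were affected. Affected females thus differ from control females in p53 genotype as well as in being affected, and from control males in sex as well, so these differences cannot be told apart; the 2 comparisons share the affected females.

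Each library held between 8211942 and 11218682 counts. Trp53 itself was counted at 105 to 139 CPM (counts scaled to 1e6 per library) in all 11 libraries, so its level checks no label, but Ccng1, a p53 target, lay at 21.8 to 33.5 CPM in the p53-/- libraries and at 74.7 to 93.8 CPM in the control females. Bcl2l11, which encodes Bim, lay at 36.0 to 47.7 CPM in the p53-/- libraries and at 71.0 to 82.1 CPM in the control females, although all carry the same Bim label; its part in the results was not tested. Neural progenitor markers were present throughout (14 genes, summed level 1467 to 1833 CPM). Control female 1 stood apart in its blood markers (14 primitive erythroid genes, summed level 583 CPM against 1179 to 4516 CPM in the other 10 libraries) and in its balance of mitochondrial transcripts, and results that rest on it are given with and without it.

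Complexes I, III and IV pump protons across the inner mitochondrial membrane as electrons pass from NADH to oxygen, and complex V, the ATP synthase, uses the gradient to make ATP; complex II feeds electrons in from succinate without pumping. The mitochondrial DNA encodes a few core subunits of every complex except II, as long polycistronic transcripts that are cut at the tRNAs between the genes, while all other subunits and the assembly factors come from the nucleus. The early embryo relies strongly on glycolysis, and oxidative metabolism gains weight as neural tissue matures.

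The mitochondrial genes took a smaller share of the RNA in affected females than in either control group. Their share of all counts was 1.61%, 1.69%, 1.31% and 1.43% in the 4 affected females, 2.82%, 3.82%, 3.82% and 2.06% in the 4 control males, and 2.48%, 4.59% and 4.99% in the 3 control females. Every affected female lay below every control, and the controls spread widely, with control male 4 and control female 1 nearest to the affected females. The means were 1.51% ± 0.171 (SD, n = 4), 3.13% ± 0.855 (SD, n = 4) and 4.02% ± 1.35 (SD, n = 3), a share 2.66 times lower than in control females and 2.08 times lower than in control males. In bulk tissue, fewer cells rich in mitochondrial RNA and less such RNA per cell cannot be told apart.

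As a sum, the nuclear members moved far less. They took 0.769%, 0.773%, 0.701% and 0.683% of counts in the affected females, 0.884%, 0.772%, 0.845% and 0.791% in the control males, and 0.797%, 0.784% and 0.840% in the control females. The affected females lay just below all control females and overlapped the control males through control male 2. The difference of means was -0.0755 percentage points against control females and -0.0916 against control males. Within each library the mitochondrial genes had 2.09, 2.18, 1.87 and 2.09 counts for each nuclear count in affected females, against 3.19, 4.95, 4.52 and 2.60 in control males and 3.11, 5.85 and 5.93 in control females. This ratio does not depend on the total of the library, and again no affected female reached any control. No test was run on these sums, because the members were chosen with results in view.

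**Figure D1:**
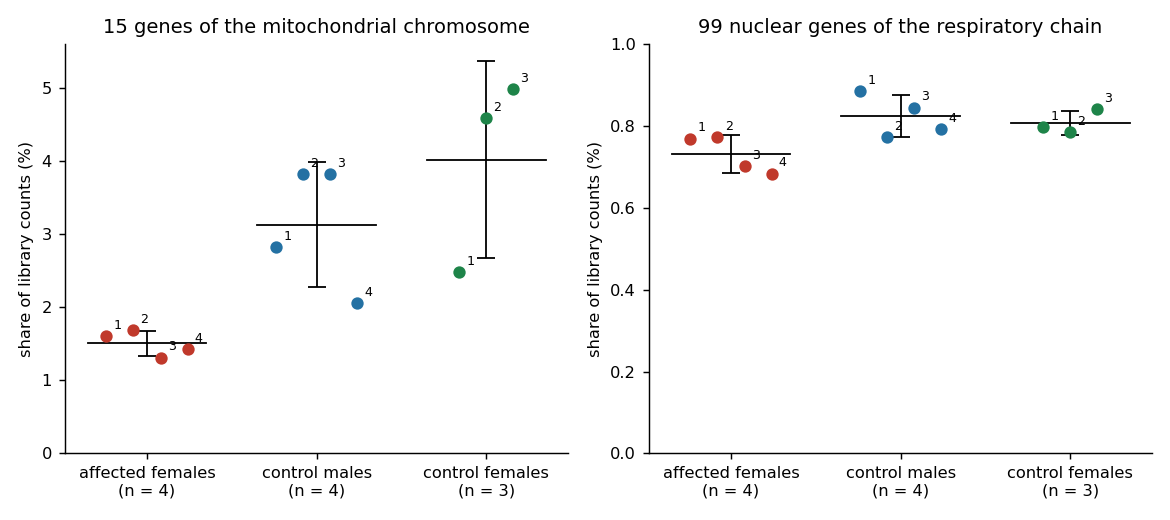
Share of each library's counts (%, y axis) on the 15 mitochondrial genes (left) and the 99 nuclear members (right) in affected females, control males and control females; each numbered point is 1 embryo, the wide line is the group mean and the bar is 1 SD. The affected females sit between 1.31% and 1.69% on the left, below all 7 controls, while the right panel runs only from 0.683% to 0.884%.

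Several mitochondrial genes have near-identical copies in the nucleus. Chromosome 1 carries a stretch of mitochondrial DNA (a nuclear insertion) that GENCODE vM21 annotates as a row of pseudogenes on the minus strand. Against it, mt-Co2, mt-Co3, mt-Atp6 and mt-Nd4l (subunits of complexes IV, IV, V and I) showed no difference over the whole length of the annotated copies Gm28661, Gm28437, Gm10925 and Gm10222. The first 876 bases of mt-Nd4 matched Gm28439 without a difference, and mt-Nd3 differed from Gm28438 by 1 substitution, T3C. The copy of mt-Co1, Gm29216, begins at base 1054 of the gene and differs from it by 6 substitutions, all near its start (T1056A, C1057T, A1059G, A1060G, C1062A and A1066T). Positions count from 1 at the first base of the mitochondrial gene, and the mitochondrial base stands first. The 2 pairs below show the near-identity that a read counter meets, with the differing bases in capitals. They are mt-Co1 bases 1034 to 1133 (chrM:6361-6460, plus strand) with the start of Gm29216 (chr1:24616118-24616197, minus strand), and the first 100 bases of mt-Nd3 (chrM:9459-9558, plus strand) with Gm28438 (chr1:24613020-24613119, minus strand), all on GRCm38.
mt-Co1: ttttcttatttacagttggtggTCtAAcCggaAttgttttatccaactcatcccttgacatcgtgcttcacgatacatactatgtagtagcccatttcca
Gm29216: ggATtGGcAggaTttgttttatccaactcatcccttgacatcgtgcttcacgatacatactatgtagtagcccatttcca
mt-Nd3: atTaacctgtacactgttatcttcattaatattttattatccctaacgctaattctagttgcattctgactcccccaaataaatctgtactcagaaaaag
Gm28438: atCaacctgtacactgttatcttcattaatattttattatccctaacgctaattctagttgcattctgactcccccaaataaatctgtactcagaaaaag

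The 5 mitochondrial genes with nearly all their 50-base words also present in nuclear copies were listed at low levels. Per kilobase, the means over all libraries were 112 CPM for mt-Co2, 92.8 for mt-Co3, 129.8 for mt-Atp6, 67.0 for mt-Nd3 and 56.5 for mt-Nd4l. Most protein genes with no or few shared words were higher, at 4643 CPM per kilobase for mt-Nd1, 4207 for mt-Cytb, 2841 for mt-Nd2 and 1791 for mt-Nd5. mt-Co1, with 51.1% of its words shared, reached 5498 CPM per kilobase, and mt-Nd4, with 62.2%, reached 1136. mt-Atp8, which overlaps the start of mt-Atp6, was also low, at 133 CPM per kilobase. It shares 0% of its words with annotated transcripts at other places, which does not show that it has no nuclear copy. The annotated copies of its neighbours, Gm10925 (ending at chr1:24614651) and Gm28661 (starting at chr1:24614885), leave a stretch between them whose sequence was not examined. The sources used here do not give how the counting treated reads that map to several places or overlap several genes, and its part in these levels was not tested. The 2 ribosomal RNAs, at 288 (mt-Rnr1) and 362 CPM per kilobase (mt-Rnr2), were read from libraries made from polyadenylated RNA.

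**Figure D2:**
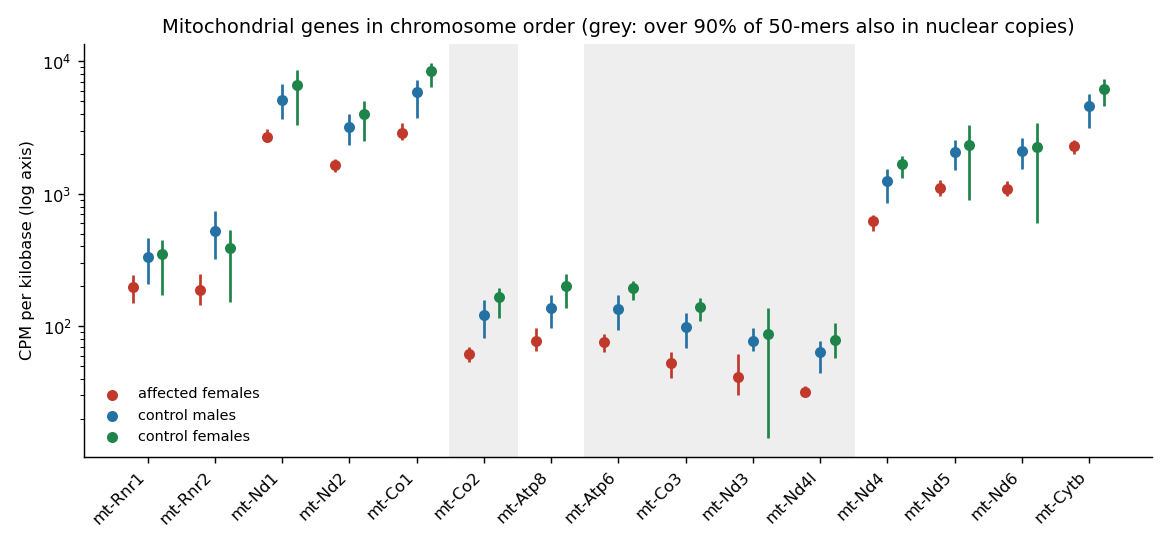
CPM per kilobase (log axis) of the 15 mitochondrial genes in the order of the chromosome. Points are group means (4 affected females, 4 control males, 3 control females). Vertical lines run from the lowest to the highest embryo, and grey bands mark genes with over 90% of their 50-base words in annotated nuclear copies. The banded genes lie between 56.5 and 129.8 CPM per kilobase on average, and the affected females have the lowest mean at every gene.

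Gene by gene, 13 of the 15 mitochondrial members were called lower in affected than in control females, and none higher, at a threshold of 0.05 on the Benjamini-Hochberg adjusted p of edgeR's quasi-likelihood test (14542 genes). In that comparison 28.0% of all genes tested were called (15.0% of all genes tested lower and 13.0% higher). In 10 of the 15 no affected female reached a control female, beside 20.0% of all genes apart in that direction. The median log2 fold change of the mitochondrial genes was -1.31, against -0.00 over all genes tested. Against control males, 12 of 15 were lower and none higher, with a median of -0.93, where 20.2% of all genes were called (10.7% lower, 9.51% higher) and the median of all genes was -0.02; 13 of 15 lay fully below the control males, beside 9.43% of all genes. The members that missed the threshold were mt-Nd3 and mt-Rnr1 in both comparisons and mt-Nd6 against control males. Without affected female 3, only 6 of 15 were called lower against control males, and 361 genes were called in all.

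mt-Co1, the catalytic core of complex IV, showed the lowest log2 fold change of the mitochondrial genes against control females. It stood at 4259, 5246, 3918 and 4246 CPM in the affected females, at 8516, 11063, 11114 and 5802 CPM in the control males, and at 9841, 14368 and 15058 CPM in the control females. All 4 affected females lay below every control. The gene was 2.96-fold lower than in control females (log2 -1.57, SE 0.21, adjusted p = 0.000924, edgeR) and 2.07-fold lower than in control males (log2 -1.05, SE 0.20, adjusted p = 0.00885, edgeR). mt-Co2 and mt-Co3, the other core subunits of complex IV, fell by 1.45 and 1.41 on the log2 scale against control females and by 0.99 and 0.91 against control males.

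mt-Cytb, the heme-bearing core of complex III, shares 0% of its 50-base words with other annotated transcripts. Its values were 2935, 2906, 2292 and 2439 CPM in affected females, 4846, 6133, 6528 and 3595 CPM in control males, and 5279, 7536 and 8451 CPM in control females. The affected females lay below every control, while the control groups overlapped each other. The gene was 2.68-fold lower than in control females (log2 -1.42, SE 0.20, adjusted p = 0.00108, edgeR) and fell by 1.00 on the log2 scale against control males (SE 0.19, adjusted p = 0.0087, edgeR). In complex V, mt-Atp6, the proton channel, and mt-Atp8, its small partner, both fell by 1.37 on the log2 scale against control females, and by 0.84 and 0.82 against control males.

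The 7 complex I genes encode the membrane arm of the enzyme. mt-Nd1 was counted at 2491, 2967, 2382 and 2481 CPM in affected females, at 4373, 5274, 6403 and 3518 CPM in control males, and at 3170.1, 7581 and 8237 CPM in control females. All affected females lay lowest, but control female 1 came close to them. mt-Nd1 fell by 1.29 on the log2 scale against control females (SE 0.26, adjusted p = 0.00444, edgeR), and mt-Nd2, mt-Nd4 and mt-Nd4l fell by 1.27, 1.42 and 1.31. Against control males, mt-Nd1, mt-Nd2, mt-Nd4, mt-Nd4l and mt-Nd5 fell by 0.92, 0.95, 1.01, 0.99 and 0.90.

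mt-Nd5 and mt-Nd6, which meet end to end on opposite strands, overlapped between affected and control females through a single embryo. mt-Nd5 stood at 2299.7, 2089.7, 1749 and 1912 CPM in affected females, and at 1630.1, 5219.6 and 5999 CPM in control females. mt-Nd6, the one protein gene of the light strand, stood at 647, 589, 500.3 and 529 CPM in affected females, and at 310.2, 1433 and 1765 CPM in control females. In both genes control female 1 lay below all affected females and the other 2 control females far above them. Both were called lower (log2 -1.09, adjusted p = 0.0187, and log2 -1.05, adjusted p = 0.0456, edgeR), but mt-Nd6 lost its call in 12 of 21 alternatives and mt-Nd5 in 4. Against control males mt-Nd5 lost its call in 8 of 21. Without control female 1, all 15 mitochondrial genes were called lower, with a median log2 fold change of -1.55. In that fit 4579 genes were called in all, beside 4073 with control female 1.

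The 2 ribosomal RNAs of the mitochondrial ribosome were ordered differently among the controls. mt-Rnr2 lay at 329.6, 234, 228 and 395 CPM in affected females, at 545, 1167, 1063 and 511 CPM in control males, and at 242, 746 and 846 CPM in control females. Control female 1 lay among the affected females, and no control male did. It was lower than in control males (log2 -1.47, SE 0.34, adjusted p = 0.0134, edgeR) and than in control females (log2 -1.04, SE 0.36, adjusted p = 0.0414, edgeR). mt-Rnr1 gave log2 fold changes of -0.83 against control females (adjusted p = 0.0513) and -0.76 against control males (adjusted p = 0.0669) in the same test. The call of mt-Rnr2 against control females was lost in 7 of 21 alternatives.

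Within the mitochondrial transcripts, 10 of the 11 libraries had a similar balance of protein genes, whatever their group. Per 100 counts of mt-Cytb, mt-Nd5 had 66.0 to 78.4 counts in those 10 libraries and 30.9 in control female 1, and mt-Nd6 had 18.3 to 22.2 and 5.88. mt-Nd1 had 84.9 to 103.9 counts against 60.0, and mt-Nd3 0.432 to 0.734 against 0.0943. In the same library mt-Co1 (186 per 100, others 145 to 191), mt-Nd4 (34.1, others 31.3 to 34.4) and mt-Co2 (1.51, others 1.51 to 1.70) kept within or near the range of the rest. The shift in control female 1 thus lay in some genes of complex I and in the ribosomal RNAs. The affected females, with a lower total, overlapped the other controls in these ratios.

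**Figure D3:**
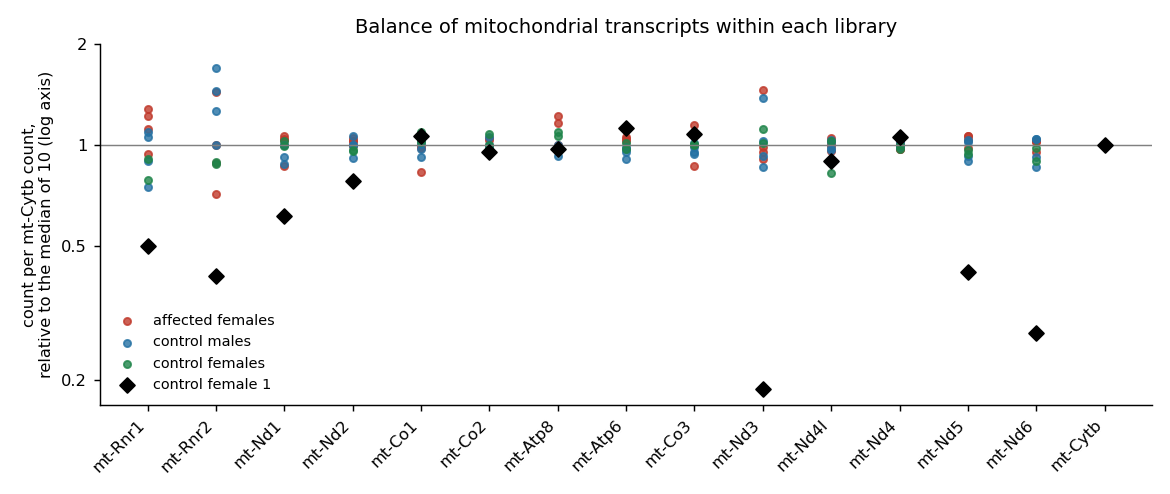
Counts of each mitochondrial gene per mt-Cytb count, divided by the median of the 10 libraries other than control female 1 (log axis); dots are those 10 libraries coloured by group, black diamonds are control female 1. Most dots of the protein genes lie near 1, and control female 1 lies far below for mt-Nd3, mt-Nd6, mt-Nd5 and both ribosomal RNAs.

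Of the 92 nuclear members tested, 27 were called lower in affected than in control females and 2 higher, beside 15.0% and 13.0% of all genes. Against control males 32 were lower and 1 higher, beside 10.7% and 9.51%. Their median log2 fold changes were -0.26 and -0.29. Some members share sequence: of 12 with at least 10% of their 50-base words in transcripts of other genes, 4 were lower in each comparison. Of the other 80, which include Ndufb4b, whose words were not compared, 23 and 28 were lower. The related rows Ndufb4, Ndufb4b and Ndufb4c were all among the 27, and 100% of the words of Ndufb4c also lie in Ndufb4. The groups did not overlap for 33 lower and 9 higher members against control females (20.0% and 20.2% of all genes), and for 21 lower and 0 higher members against control males (9.43% and 10.1%). Of the lower members, 24 were called in both comparisons, 88.9% of the first list and 75.0% of the second, which share the affected females. These calls, like those over all genes, lean on few embryos. The count of 29 nuclear calls against control females fell to 18 without affected female 3 and to 11 without control female 3. Calls over all genes fell from 4073 to 1967 and 1663 in the same fits. The count of 33 against control males fell to 0, 9, 3, 19 and 14 without affected female 3, affected female 4, control male 1, control male 2 and control male 3. There, calls over all genes fell from 2940 to 361 without affected female 3, and fell in the other fits named as well.

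Complex IV members were among those with the smallest adjusted p. Cox4i1 (chr8:120668225-120674209), the common isoform of a regulatory subunit, lay at 151, 153, 116 and 102 CPM in affected females, 222, 199, 221 and 164 CPM in control males, and 207, 215 and 239 CPM in control females. No affected female reached a control. It fell 1.69-fold against control females (log2 -0.76, SE 0.14, adjusted p = 0.0035, edgeR) and 1.54-fold against control males (log2 -0.63, SE 0.13, adjusted p = 0.0106, edgeR). Ndufa4 (chr6:11900372-11907450), a subunit named for complex I that belongs to complex IV, lay at 157, 159.6, 112 and 98.9 CPM against 238, 212, 227 and 167 CPM in control males and 231, 239 and 263 CPM in control females. It too was separate from both control groups, with log2 fold changes of -0.89 and -0.68. Cox7a2, the widely expressed isoform of a small subunit, fell by 0.80 and 0.56 on the log2 scale. In all, 5 of 14 complex IV members tested were lower against control females and 6 against control males, beside 15.0% and 10.7% of all genes.

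Isoforms of complex IV that are known for limited tissues were near the floor. Cox6a2, Cox7b2, Cox8b and Cox8c, known from muscle or testis, had between 0 and 1 counts over all 11 libraries together, and the muscle isoform Cox7a1 had 70. The 2 other members left untested for low counts, Ndufa8 with 76 and Uqcr11 with 1, were not chosen as tissue-limited isoforms. Why their counts were so low was not tested. Cox6b2, known from testis, was counted at 2.09 to 4.14 CPM and not called (log2 -0.21 and -0.10). The hypoxia-related isoform Ndufa4l2 stood at 2.49, 2.26, 1.40 and 0.29 CPM in affected females, 0.38, 0.21, 0.30 and 0.82 CPM in control males, and 0.87, 0.64 and 0.37 CPM in control females. Its affected females ranged from among the lowest embryos to the 3 highest of all, on 2 to 25 counts per library. It passed the filter on low counts only through affected females 1 to 3 and had under 10 counts in every control. It was the single nuclear member called higher than in control males (log2 1.86, SE 0.55, adjusted p = 0.0308, edgeR), a call that rests on that filter: with at least 10 counts required in 6 libraries it was not tested, and 0 nuclear members were higher. Against control females it missed the threshold (log2 1.38, adjusted p = 0.0843). Cox4i2, another hypoxia-related isoform, gave 0.82 and 0.72 with adjusted p of 0.157 and 0.181.

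Complex I is the largest. Of its 30 accessory subunits tested, 10 were lower against control females and 11 against control males, beside 15.0% and 10.7% of all genes. Of its 7 core nuclear subunits, 0 and 1 were lower, and a difference between the 2 kinds of subunit was not tested. Ndufs4 (chr13:114287795-114388094), an accessory subunit of the NADH-oxidising arm whose loss causes Leigh syndrome, lay at 72.7, 82.3, 53.6 and 57.1 CPM in affected females, 113, 109, 101 and 81.2 CPM in control males, and 114, 113 and 135 CPM in control females. Affected female 2 overlapped control male 4 only. It was 1.82-fold lower than in control females (log2 -0.87, SE 0.14, adjusted p = 0.00248, edgeR) and 1.52-fold lower than in control males (log2 -0.60, SE 0.13, adjusted p = 0.0118, edgeR). Ndufb6 of the membrane arm stood at 32.3, 33.5, 23.6 and 18.6 CPM in affected females, below all controls (34.7 to 51.6 CPM), and fell by 0.87 and 0.68 on the log2 scale. Its neighbours in that arm Ndufb5, Ndufb8 and Ndufb9 fell by 0.44, 0.50 and 0.67 against control females, and by 0.47, 0.53 and 0.60 against control males. Ndufa10 went the other way, at 89.3 to 98.5 CPM in affected females and 76.1 to 80.9 CPM in control females (log2 0.25, adjusted p = 0.0369, edgeR), a call lost in 9 of 21 alternatives.

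Complex II, which has no mitochondrial gene, had no subunit called lower. Sdha, its flavoprotein, lay at 292, 294, 324 and 322 CPM in affected females, 244, 226, 264 and 313 CPM in control males, and 245, 254 and 248 CPM in control females. It was higher than in control females without overlap (log2 0.31, SE 0.10, adjusted p = 0.041, edgeR), a call lost in 10 of 21 alternatives, and overlapped the control males through control male 4 (log2 0.23, adjusted p = 0.0919). Sdhb, the iron-sulfur subunit, gave 0.01 and -0.12 on the log2 scale, and the membrane anchor Sdhc gave 0.11 and 0.07. The anchor Sdhd was counted at only 0.55 to 1.48 CPM. Of the 4 assembly factors of this complex, Sdhaf4 and Sdhaf3 fell in both comparisons (log2 -0.81 and -0.54, and log2 -0.62 and -0.46), while Sdhaf1 and Sdhaf2 were not called. The call of Sdhaf3 against control males was lost in 10 of 21 alternatives.

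In complex III, 1 of 7 members tested was called lower in each comparison, beside 15.0% and 10.7% of all genes. It was Uqcrh, the hinge subunit next to cytochrome c1. It lay at 142, 141, 118 and 96.8 CPM in affected females and 163 to 193 CPM in control females (log2 -0.52, SE 0.13, adjusted p = 0.0126, edgeR). Uqcrc2, a core subunit, overlapped between all groups, at 285, 287, 287 and 304 CPM in affected females and 263 to 326 CPM in controls (log2 0.02 in both comparisons).

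In complex V, 8 of 17 members were lower in each comparison, beside 15.0% and 10.7% of all genes. Atp5b, the catalytic subunit and the nuclear member with the highest level per kilobase (731 CPM), lay at 1466, 1499, 1541 and 1541 CPM in affected females, 1288, 1109, 1372 and 1578 CPM in control males, and 1384, 1144 and 1197 CPM in control females. It was not called (log2 0.28, adjusted p = 0.0872, and log2 0.18, adjusted p = 0.255). Atp5e, a small subunit of the central stalk, lay at 51.4, 58.2, 42.9 and 29.9 CPM in affected females, 89.6, 74.9, 84.5 and 53.3 CPM in control males, and 99.2, 84.7 and 108 CPM in control females. It was 2.13-fold lower than in control females (log2 -1.09, SE 0.19, adjusted p = 0.00302, edgeR) and, overlapping control male 4, 1.66-fold lower than in control males (log2 -0.73, SE 0.18, adjusted p = 0.017, edgeR). Atp5g3, a subunit of the membrane ring, lay at 241 to 284 CPM in affected females and 305 to 330.4 CPM in control females and just missed the threshold (log2 -0.26, adjusted p = 0.05002, edgeR). Atp5mpl, Atp5h and Atp5o, small subunits or parts of the stator, fell by 0.67, 0.48 and 0.32 against control females and by 0.46, 0.54 and 0.38 against control males.

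The nuclear members that fell were mostly short genes. Of the 54 tested members of up to 800 counted bases, 23 were lower against control females and 26 against control males, and 0 were higher. Among all genes of that length, 30.3% and 19.9% were called lower, and 2.98% and 1.49% higher. Of the 16 members of 1500 bases or longer, 2 were lower in each comparison, Ndufs4 and Ndufaf5, and 1 was higher against control females, beside 13.5% and 9.51% of all such genes lower. The short members took a mean 0.233% of counts in affected females, 0.315% in control males and 0.324% in control females. The long members took 0.378%, 0.368% and 0.348%. In both shares the affected females lay apart from the control females, the first below and the second above, and overlapped the control males. Across the nuclear members, Spearman's rho between length and log2 fold change was 0.53 against control females and 0.49 against control males (92 genes of the same libraries), and 0.13 and 0.23 across the other 14435 genes.

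Length and library moved together. The median of the short members, each centred on its mean over all libraries, was -0.09, -0.05, -0.36 and -0.53 on the log2 scale in affected females 1 to 4. The median of the other 880 short genes in the same libraries was -0.05, 0.02, -0.21 and -0.36. Control male 1 was high in both (0.31 and 0.24), and control male 4 was below 0 in both (-0.08 and -0.05). The long members stayed between -0.11 and 0.07 in all libraries. Affected females 3 and 4 were the libraries with the lowest short genes, members and others alike.

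**Figure D4:**
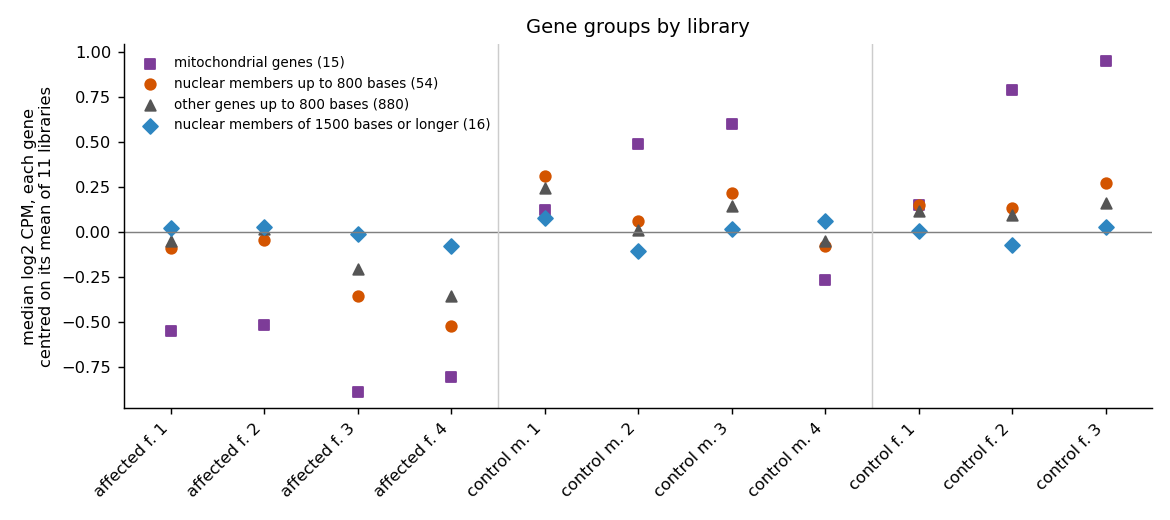
Median log2 CPM, each gene centred on its mean over the 11 libraries (y axis), for 4 groups of genes in each library (x axis, 4 affected females, 4 control males, 3 control females). The short nuclear members follow the other short genes from library to library, the long members stay near 0, and the mitochondrial genes range from -0.89 to 0.95.

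**Figure D5:**
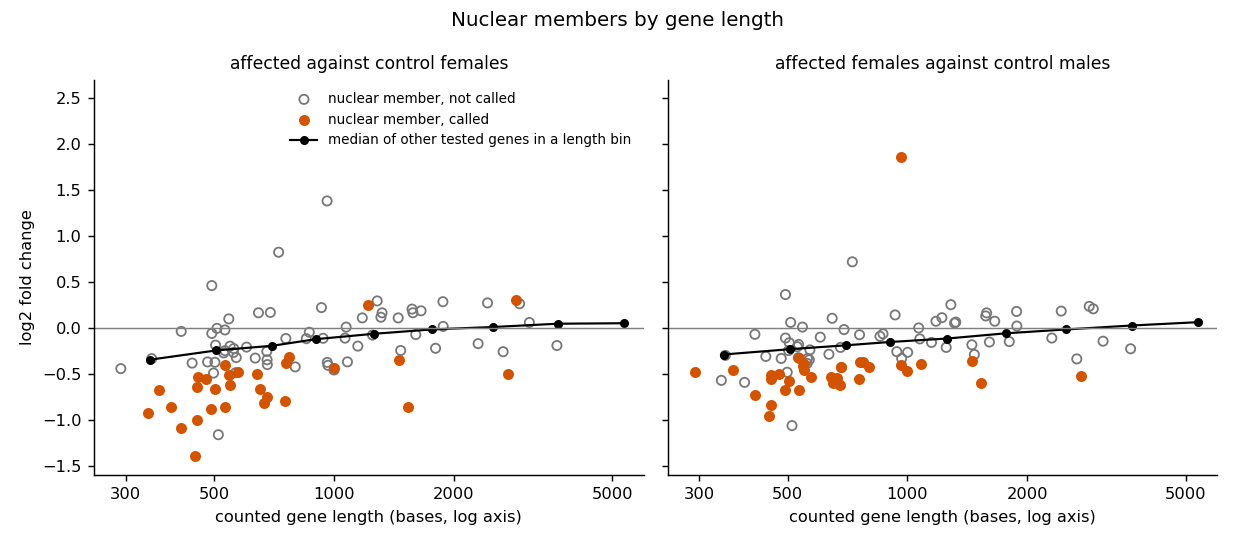
Log2 fold change (y axis) of the 92 nuclear members tested against counted gene length (bases, log axis) for affected against control females and against control males; filled points were called, and the black line joins the medians of other tested genes in length bins. The called members with negative values gather below 800 bases, where the line is below 0 as well.

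With smooth trends of count on length and GC content removed from each library, an alternative chosen after seeing the data, the lean of the nuclear members was smaller, and against control females the calls were about even. Their median log2 fold change was -0.01 against control females and -0.07 against control males. Of those called, 13 were lower and 12 higher against control females, and 11 lower and 4 higher against control males, in place of 27 and 2, and 32 and 1. In that fit 4293 of the 14542 genes tested were called against control females. The 25 of 92 nuclear members called there were close to that share. Shares of all genes by direction, or against control males, were not set beside the counts of this fit. All of the 13 and of the 11 were among the lower members of the first fit. They included Cox4i1 (log2 -0.47 and -0.37), Ndufa4 (-0.41 and -0.28), Ndufs4 (-0.78 and -0.50), Atp5e (-0.67 and -0.38), Ndufb6 (-0.54 and -0.40) and Cox7a2 (-0.61 and -0.38). Among the mitochondrial genes 11 remained lower against control females and 7 against control males, with medians of -0.92 and -0.60. mt-Co1 gave -1.42 and -0.88 and mt-Cytb -1.20 and -0.77. mt-Atp8, the shortest mitochondrial gene, turned from -0.82 to 0.11 against control males (adjusted p = 0.698, edgeR).

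Control males and control females differ in sex and in p53. Between them no member was called by edgeR's quasi-likelihood test, beside 0.144% of all genes (0.0963% lower, 0.0481% higher). At an unadjusted p under 0.05 in that test there were 7 of 15 mitochondrial and 2 of 92 nuclear members, beside 891 of all 14542 genes. DESeq2 also called no member, while limma voom with sample weights called 2 mitochondrial genes lower and 2 nuclear genes higher among 1569 genes in all. The mitochondrial median was -0.37 and the nuclear 0.01, and the mitochondrial shares of the 2 groups overlapped.

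The nuclear genes that copy, read and translate the mitochondrial DNA are counted here beside the 13.0% of all genes that were higher and the 15.0% that were lower against control females. These lists, like the members, were drawn up with earlier results of these data known. Of 12 genes of mitochondrial transcription, none was higher and 1 lower against control females. Tfam, which packages and helps transcribe the mitochondrial DNA, lay at 139 to 162 CPM in affected females and 136 to 144 CPM in control females (log2 0.08, SE 0.09, adjusted p = 0.509, edgeR). Polrmt, the mitochondrial RNA polymerase, gave -0.19 (adjusted p = 0.288); both were picked after their values were seen. Of 16 genes of DNA replication and upkeep, 2 were higher and 2 lower, among them Ssbp1, the single-strand binding protein, at log2 -0.51. Of 11 translation factors, 1 was higher and 1 lower.

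Among 21 genes of mitochondrial RNA processing and stability, 3 were higher and 2 lower against control females. These counts are near or below the 13.0% higher and 15.0% lower of all genes. Lrpprc, which holds mitochondrial messenger RNAs stable together with Slirp, lay at 199, 183, 227 and 226 CPM in affected females, 125, 130, 144 and 185 CPM in control males, and 179, 144 and 132 CPM in control females. It was higher than in control females (log2 0.46, SE 0.14, adjusted p = 0.0243, edgeR), and in control males only control male 4 reached the lowest affected female. Slirp stood at 41.2, 43.9, 36.4 and 30.8 CPM in affected females and at 46.4 to 54.9 CPM in all controls (log2 -0.44, SE 0.11, adjusted p = 0.0133, edgeR).

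Assembly factors outside the name rule gave 2 of 33 higher and 10 lower against control females, beside 13.0% and 15.0% of all genes. Cox20, a chaperone of the mitochondrially encoded COX2 protein, lay at 46.3, 50.03, 46.3 and 42.1 CPM in affected females, 87.0, 93.9, 72.8 and 49.8 CPM in control males, and 84.1, 105 and 103 CPM in control females. Only control male 4 fell among the affected females, and the log2 fold changes were -1.08 (SE 0.16, adjusted p = 0.00191, edgeR) and -0.71. Coa3, Tmem70 and Cox16 fell by 0.60, 0.60 and 0.65 against control females.

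Nuclear regulators and the pathways that feed the chain are read against the same shares of all genes, 13.0% higher and 15.0% lower against control females, and 9.51% and 10.7% against control males. Of 11 regulators of respiration genes, 2 were higher against control females and 3 against control males, and none lower. They were Nrf1, an activator of respiratory genes (log2 0.26 and 0.21), with Myc (0.70) in the first comparison and Gabpa and Sp1 (0.32 and 0.28) in the second. Of 17 genes of the tricarboxylic acid cycle and pyruvate dehydrogenase, 4 and 3 were higher and none lower. Pdha1, the X-linked E1 subunit of pyruvate dehydrogenase, lay at 262, 293, 316 and 277 CPM in affected females and 147 to 227 CPM in all controls (log2 0.77, SE 0.13, adjusted p = 0.00302, against control females, edgeR). Of 15 genes of the outer membrane, import and chaperones, 3 were higher, Vdac1 among them (log2 0.50), and 1 lower, the short chaperonin gene Hspe1 (log2 -0.71). Of 7 other electron carriers, Gpd2 was higher (log2 0.49) and Etfa lower (log2 -0.49), and of 11 genes of mitophagy and mitochondrial dynamics, Mfn1 was higher (log2 0.37) and Mff and Fis1 lower (log2 -0.39 and -0.29). Of 8 genes tested from a list of p53 targets of mitochondrial metabolism, Ccng1, the cyclin gene used above as a check of the labels, was called (log2 -1.91). That list does not stand for p53 targets in general. Of 20 glycolysis genes, 12 were higher and 1 (Ldhb) lower.

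Lists for glycolysis and for other cell types are given with the same 13.0% higher and 15.0% lower over all genes in view. The summed level of 20 glycolysis genes was 7855 to 9408 CPM in affected females, 7368 CPM in control male 4 and 6918 CPM in control female 1, the controls with the lowest mitochondrial shares, and 4307 to 5973 CPM in the other 5 controls. Early neuron markers were lower for 15 of 23 genes against control females, with sums of 266 to 336 CPM in affected females, 420 to 646 CPM in control males and 322 to 650 CPM in control females. Surface ectoderm markers were higher for 9 of 10 genes, with sums of 274 to 317 CPM in affected females, 153 to 222 CPM in control males and 139 to 256 CPM in control females. The 14 primitive erythroid genes had a median log2 fold change of -0.25 and sums of 1179 to 2411, 2214 to 3811 and 583 to 4516 CPM in the 3 groups. Neural progenitor markers gave 4 of 14 higher and 2 lower, endothelial markers 1 of 10 lower and head mesenchyme 2 of 11 higher. Neural crest markers gave 5 of 8 higher and 1 lower, muscle markers 1 of 2 tested higher (Nkx2-5 was at 0 in every library), and heat shock and immediate early genes 1 of 8 each way. The part of these lists in the mitochondrial result was not tested.

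Promoters of the nuclear members were searched for the core letters of 2 known activators of respiratory genes, on both strands. RefSeq promoters (250 bases before to 50 after the start, GRCm38.p6) were found for 81 of the 99 members. GCGCATGC, of the NRF1 site, was present in 12 of 86 member promoters (14.0%) and in 2.71% of all 32851 promoters. CCGGAAG, of the GABPA site, was present in 22 of 86 (25.6%) and in 8.86% of all. Among promoters of members lower in affected than in control females, 1 of 23 held the first and 7 of 23 the second. Among those not called, 9 of 56 and 14 of 56 did. A match is a description of letters and not of binding. Printed here are the promoter of Atp5e, the lower member with the smallest adjusted p that holds the GABPA letters (chr2:174464052-174464351, minus strand), and that of Ndufaf5, a complex I assembly factor and the one lower member with the NRF1 letters (chr2:140170396-140170695, plus strand), chosen after the values were seen. Capitals mark the matches, the first of which is read on the opposite strand and the second of which is 2 overlapping matches, 1 on each strand.
Atp5e promoter: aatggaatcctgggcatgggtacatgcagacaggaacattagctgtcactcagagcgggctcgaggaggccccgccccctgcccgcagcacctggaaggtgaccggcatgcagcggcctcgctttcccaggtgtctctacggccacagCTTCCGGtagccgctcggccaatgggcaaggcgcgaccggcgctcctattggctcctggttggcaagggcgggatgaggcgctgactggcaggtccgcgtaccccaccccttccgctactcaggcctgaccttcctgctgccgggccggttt
Ndufaf5 promoter: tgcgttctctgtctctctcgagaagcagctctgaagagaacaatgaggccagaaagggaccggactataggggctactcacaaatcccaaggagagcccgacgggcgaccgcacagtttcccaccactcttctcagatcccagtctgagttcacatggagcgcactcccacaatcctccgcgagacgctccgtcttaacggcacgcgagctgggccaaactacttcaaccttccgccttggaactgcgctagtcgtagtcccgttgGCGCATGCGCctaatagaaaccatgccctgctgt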

How the data were processed

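The authors deposited raw read counts per gene for each of the 11 embryos, from polyadenylated RNA libraries (TruSeq, HiSeq 2000, per the labels' protocols). Counting used featureCounts on mm10, per the submitters' processing notes; the sources used here name no aligner, strand setting or treatment of multi-mapping reads. No column was left unused. Replicates are separate embryos by title, and total counts between 8211942 and 11218682 set the precision.

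CPM, shares and tests were computed here from the counts. edgeR 4.0.16 (R 4.3.3) fitted all 11 libraries with group as the single term, TMM scaling, filterByExpr (14542 genes tested) and the quasi-likelihood test, at a threshold of 0.05 on the Benjamini-Hochberg adjusted p over all genes tested. The biological coefficient of variation was 11.9%. Levels are CPM on TMM-scaled library sizes, and shares are percentages of all counts. Gene symbols came from RefSeq and GENCODE vM21 by gene ID (25293 of 27179 rows). Words of 50 bases were compared between GENCODE transcripts for 113 of the 114 members. The edgeR step was tested on simulated data.

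Alternatives were DESeq2 1.42.0, limma 3.58.1 (voom with sample weights), other scalings and filters, fits of only the groups compared, a replicate block and leaving out each library. After seeing the data, 3 were added: length and GC trends removed (mgcv 1.9.3; 90.9% of tested genes had a GC value), leaving out control female 1 with control male 4, and members with under 10% of words shared. Same-numbered embryos of different groups did not deviate together, so numbers were not taken as pairs.

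The genes named were all mitochondrial members, the Sdh members, per comparison up to 8 called nuclear members with the smallest adjusted p in each direction, 2 per complex with the highest level per kilobase, tissue-limited isoforms, and up to 4 genes of each other list. Ndufaf5, Ndufa8, Uqcr11, Tfam, Polrmt, Trp53, Bcl2l11 and the nuclear copies fall outside this rule; they were picked with their values in view. The members and lists were chosen with earlier results of these data known.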

Additional observations from a re-analysis of the deposited data

Results flagged for a closer look

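Among 92 groups of 4 embryos examined, 2 held an embryo that stood apart from the other 3 by more than Dixon's 95% critical value allows, a flag that chance gives in about 1 in 20 groups. Sdhb, the iron-sulfur subunit of complex II, was at 68.5 CPM in affected female 3 and at 72.8 to 73.3 CPM in the other 3 affected females. Uqcrc2, a core subunit of complex III, was at 304 CPM in affected female 4 and at 285 to 287 CPM in the other 3. Neither gene was called in any comparison.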

How the results depend on the processing

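RLE scaling, TMM without the mitochondrial genes, other count filters and fits of only the groups compared kept each count of called members within 1.5 times. With sample weights, limma voom called 7639 genes and 60 nuclear members against control females, 6397 and 62 against control males, and 1569 genes, 2 mitochondrial and 2 nuclear members between the control groups, where DESeq2 called 43 genes. Without control female 1 and control male 4, 6014 genes and 50 nuclear members were called against control males. With length and GC trends removed, 15 nuclear and 7 mitochondrial members were called there, and mt-Atp8 turned to 0.11. Per kilobase, the mitochondrial share differed by -4.32 and -2.78 percentage points and the nuclear share by -0.241 and -0.237; over members with under 10% of words shared, the first was -1.45. By medians of members, the log2 ratio of the genomes differed by -0.59 between affected and control females and by 0.55 between control males and control females. The causes of these moves were not tested.

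Leaving out 1 library at a time gave, against control females, 1663 to 4957 genes (1663, 1924 and 1967 without control female 3, control female 2 and affected female 3, 2605 without affected female 4), 10 to 15 mitochondrial and 11 to 41 nuclear members, mitochondrial shares of -3.28 to -2.03, nuclear shares of -0.0893 to -0.0591 and log2 ratios of -1.52 to -1.05. Against control males it gave 361 to 5140 genes (361, 658, 1132, 1174 and 1470 without affected female 3, control male 1, control male 2, affected female 4 and control male 3, 5140 without control male 4), 6 to 15 mitochondrial and 0 to 48 nuclear members, mitochondrial shares of -1.98 to -1.39, nuclear shares of -0.109 to -0.0711 and log2 ratios of -1.01 to -0.70. Between the control groups it gave 18 to 35 genes (35 without control male 2), mitochondrial shares of -1.66 to -0.403, nuclear shares of -0.00439 to 0.0330 and log2 ratios of -0.67 to -0.20.

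The replicate numbers did not pair the embryos: correlations of same-numbered deviations ran from -0.10 to -0.01 for affected and control females, from -0.14 to 0.15 for affected females and control males, and from -0.09 to 0.18 for the control groups. With a replicate block, 2875, 3418 and 21 genes, 10, 13 and 0 mitochondrial and 24, 36 and 0 nuclear members were called in the 3 comparisons. Over the single genes named and all alternatives, 2490 values kept their side of the threshold, 136 lost it, 68 gained it and 1 turned direction. Isoforms near 1 CPM are limited by depth.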
